A study of Mus musculus with 4 samples.

Results

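Nuclei that had copied their DNA within the preceding days were compared with neuronal nuclei of the same tissue, the adult mouse hippocampus. The EdU+ nuclei were 1 side of the comparison and the NeuN+ nuclei the other, and each side was represented by 1 library of WT mice and 1 library of Fasn-R1812W mice. A well was kept if it had 20000 or more reads spread over 300 or more genes. This left 1430 of 1536 wells, 728 EdU+ and 702 NeuN+.

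All animals were 8.5 months old. Fasn-R1812W mice carry a variant of fatty acid synthase, and WT mice do not. Nuclei of the NeuN+ libraries were stained with an antibody against NeuN, and no EdU treatment is stated for those animals. Animals of the EdU+ libraries received EdU into the abdomen (2 daily doses of 100 mg per kg over 3 days), and nuclei isolated on day 4 were stained for EdU by click chemistry. The labels give neither the number of animals behind a library nor whether both gates came from the same animals. The 2 libraries of a gate differ in genotype, so the spread between them holds any effect of the variant together with the spread between animals, plates and sorts. Gate, EdU injection and staining cannot be told apart in this design.

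EdU is a thymidine analogue that enters DNA during S phase and stays in the nucleus after division, so the label marks cells that were dividing while it was given, together with their recent daughters. In the adult hippocampus such cells are known to include oligodendrocyte precursors, the neural progenitors of the dentate gyrus, and microglia. NeuN is the splicing regulator encoded by Rbfox3, which most mature neurons carry in the nucleus. The assay, Smart-seq2, makes cDNA along the whole transcript in wells that each received a single nucleus, without molecular identifiers, so reads copied from 1 molecule are not independent.

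The libraries differed in depth. They held between 36368990 and 96597804 reads in all wells, with EdU+ WT the shallowest and EdU+ Fasn-R1812W the deepest. A kept NeuN+ well had reads in a median of 4361 genes in WT and 4333 in Fasn-R1812W, against 1025 and 2935.5 in EdU+. After every well was thinned to 20000 reads the medians were 3098.5, 3266, 908 and 1417.5 in the same order. Levels below are in CPM: the reads of all kept wells of a library were summed, and each gene's sum was scaled to 1000000 reads of nuclear-encoded genes. They are given for WT and then Fasn-R1812W within a gate, and they compare 1 gene between libraries, not genes with each other. Since libraries were pooled, fewer nuclei of a kind and less RNA per nucleus cannot be told apart.

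The gates differed across a large part of the transcriptome, and mostly the same way in both genotypes. Of 13910 genes with at least 5 CPM in at least 2 libraries, 1213 (8.72%) were higher in EdU+ and 954 (6.86%) were lower, at a Benjamini-Hochberg adjusted p under 0.05 in edgeR's quasi-likelihood test of 2 libraries against 2. These are the genes described as called, higher or lower below. A gene under 5 CPM in both libraries of a gate entered the test only through the other gate, which fixed its direction. In every gene called, the 2 EdU+ libraries lay on the same side of both NeuN+ libraries. That follows largely from selecting genes by this test and is not a separate result. Genes called higher took 3.42% and 3.30% of reads in the NeuN+ libraries and 20.2% and 19.7% in the EdU+ libraries. Genes called lower took 23.2% and 22.7% in NeuN+ and 6.47% and 6.48% in EdU+.

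Without the test, 2108 genes (15.2%) were at least 2-fold higher in EdU+ in both genotypes and 1803 (13.0%) were at least 2-fold lower, on the log2 (CPM + 1) scale. Of the genes called, 1188 higher and 898 lower genes met this rule too. The median log2 ratio of EdU+ over NeuN+ among genes called higher was 3.28 in WT and 3.33 in Fasn-R1812W. Among genes called lower it was -2.61 and -2.68, and over all tested genes it was -0.03 and -0.01. The plot of the ratio in 1 genotype against the other shows the genes along the diagonal, with Pearson's r of 0.75 and Spearman's rho of 0.63 across the 13910 genes, which are not independent replicates. The ratios had the same sign in 70.0% of genes, and 335 genes were at least 2-fold apart in opposite directions.

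**Figure D1:**
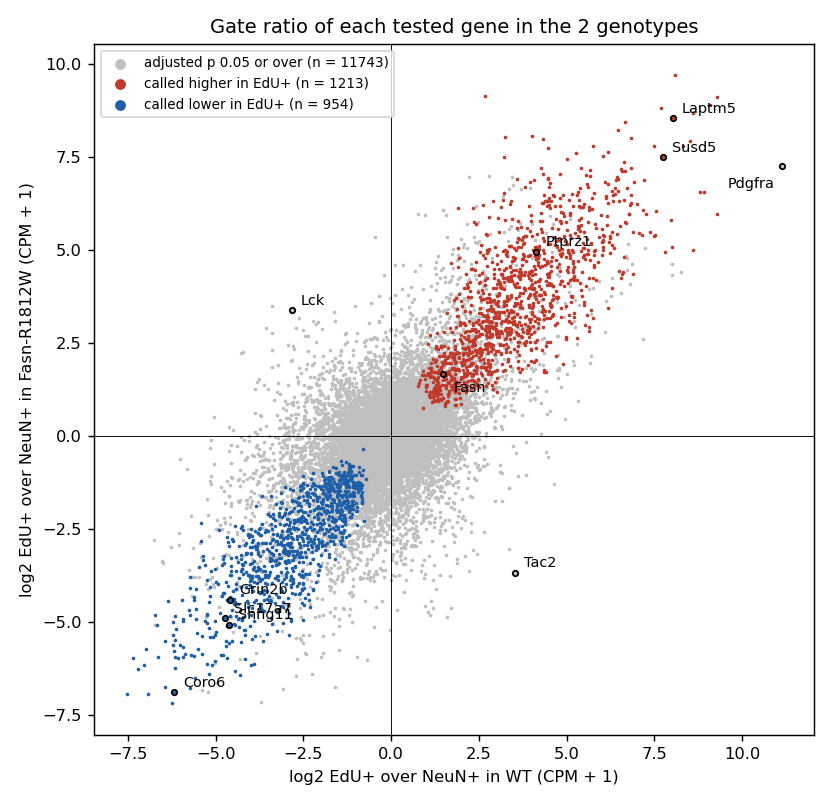
Log2 ratio of EdU+ over NeuN+ (CPM + 1) for each of 13910 tested genes, in WT on the x axis and in Fasn-R1812W on the y axis, with 1 library per gate and genotype. Red points are the 1213 genes called higher, blue points the 954 called lower and grey points the rest. The coloured points lie in the upper right and lower left, largely because the test selected them.

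The distance between gates was larger than that between genotypes, most of all beside the NeuN+ pair. In WT 46.8% of tested genes were at least 2-fold apart between gates, and in Fasn-R1812W 45.1% were. Between genotypes 30.9% of the same genes were at least 2-fold apart within EdU+ and 10.1% within NeuN+. The EdU+ pair was therefore the more variable of the 2, and leaving out either of its libraries raised the number of calls. Without EdU+ WT, which had the fewest genes per well, 1918 genes were called higher and 2042 lower. Without EdU+ Fasn-R1812W these were 2056 and 2230. Leaving out a NeuN+ library reduced the calls, to 583 higher and 260 lower without NeuN+ WT, and to 618 and 286 without NeuN+ Fasn-R1812W.

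The marker of the neuronal sort followed its label. Rbfox3 stood at 150 and 171 CPM in NeuN+ and at 28.1 and 24.5 CPM in EdU+, a fitted log2 difference of -2.61 ± 0.31 (SE, adjusted p = 0.00668). After thinning, a read of Rbfox3 was found in 57.4% (52.1% to 62.7%, exact Clopper-Pearson 95% interval, counting error only) and 62.5% (57.2% to 67.6%) of NeuN+ nuclei and in 4.26% (2.40% to 6.93%) and 5.59% (3.49% to 8.41%) of EdU+ nuclei. Fasn itself, which builds palmitate, was higher in EdU+, at 34.9 and 32.2 CPM in NeuN+ and 99.3 and 105 CPM in EdU+ (log2 1.60 ± 0.34, SE, adjusted p = 0.0284). The 2 EdU+ libraries lay close together for Fasn, and so did the 2 NeuN+ libraries.

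The genes furthest above NeuN+ in both genotypes included several of the oligodendrocyte lineage and a gene of myeloid cells. Laptm5 (ENSMUSG00000028581, chr4:130913125-130936141, + strand, GRCm38), a lysosomal membrane protein of blood-derived cells, stood at 0.396 and 0.291 CPM in NeuN+ and at 362 and 484 CPM in EdU+ (log2 10.26 ± 0.42, SE, adjusted p = 0.00184). Olig2 (ENSMUSG00000039830, chr16:91225457-91228677), the transcription factor that specifies the oligodendrocyte lineage, stood at 0.467 and 0.361 CPM against 532 and 334 CPM (log2 10.02 ± 0.47, adjusted p = 0.00184). Its relative Olig1 went from 7.57 and 10.02 CPM to 942 and 688 CPM. After thinning, a read of Olig2 was found in 30.7% (25.9% to 35.8%) and 47.3% (42.2% to 52.5%) of EdU+ nuclei, against 0.571% (0.069% to 2.05%) and 0.852% (0.176% to 2.47%) of NeuN+ nuclei.

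Susd5 (ENSMUSG00000086596, chr9:114057140-114098728), a sushi-domain protein, had no read in the kept wells of either NeuN+ library. It stood at 214 and 181 CPM in EdU+, which is at least 4340-fold higher in each genotype when 3 reads per library are taken as the limit that a count of 0 allows. Cspg4, the NG2 proteoglycan of precursor cells, stood at 2.88 and 0.278 CPM against 799 and 583 CPM. Bcas1, a gene of newly forming oligodendrocytes, stood at 1.99 and 1.07 CPM against 246 and 211 CPM. The remaining genes of the 15 named by the same rule were Tmem176b, Neu4, Matn4, Caskin2, Tmem255b, Pld1, Scrg1, Gpr17 and Emid1, all at 98.0 CPM or more in both EdU+ libraries and at 6.66 CPM or less in both NeuN+ libraries. Neu4 was near the threshold (adjusted p = 0.0469), with 0 and 4.33 CPM in NeuN+. Tmem176b, Matn4, Caskin2, Tmem255b and Gpr17 overlap a gene on the opposite strand, and the strand setting of the counting is not given, so reads could not be assigned between the partners. The same holds for Pdgfra, Tk1, Ccnd1, Cdk2, Cdc25b, Fanci, Mki67, Kif4, Cnp, S100b, Csf1r, Cx3cr1, P2ry12, Spry1, Syt1, Dock2, Pfkp, Aldoa, Ccnd3, Draxin, Fgfr3, Npc1, Tgfa, Chst11, Sulf2 and Srebf1 below.

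On the other side stood genes of mature neurons. Snhg11 (ENSMUSG00000044349, chr2:158375638-158386145), a host gene of small nucleolar RNAs, fell from 6714 and 9788 CPM in NeuN+ to 271 and 290 CPM in EdU+ (log2 -4.88 ± 0.25, SE, adjusted p = 0.00201). A read of it was found in 96.3% (93.7% to 98.0%) and 98.6% (96.7% to 99.5%) of thinned NeuN+ nuclei and in 13.9% (10.5% to 17.98%) and 22.9% (18.7% to 27.5%) of EdU+ nuclei. Slc17a7, which loads glutamate into synaptic vesicles, stood at 226 and 219 CPM against 7.57 and 6.38 CPM. Coro6 (ENSMUSG00000020836, chr11:77462411-77470484), a coronin that binds actin, stood at 71.4 and 119 CPM in NeuN+, had no read in EdU+ WT, and was at 0.0104 CPM in EdU+ Fasn-R1812W.

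The other 12 genes named as lower were Trpc4, Slit3, Zdbf2, Ptchd4, Cntn5, Dnah9, Ltk, Epha6, Epha10, Npy1r, Traip and Ankrd45. Each stood at 51.3 CPM or more in both NeuN+ libraries and at 3.95 CPM or less in both EdU+ libraries. They include a cation channel (Trpc4), the axon repellent Slit3, the adhesion protein Cntn5, Eph receptors (Epha6, Epha10), a neuropeptide Y receptor (Npy1r) and a ubiquitin ligase of the replication fork (Traip). Traip stood at 94.5 and 125 CPM against 1.96 and 0.917 CPM. It starts just after the end of Camkv on the same strand, and Camkv, a kinase-like protein of neurons, was lower too, at 499.9 and 616 CPM against 64.8 and 29.0 CPM. The part of reads running on from Camkv was not tested. The EdU+ reads of the 12 genes, where there were any, were concentrated, with between 36.8% and 100% of them in 1 nucleus. For Ptchd4 and Ltk, 1 nucleus held 100% of them in each EdU+ library. The plot of levels by library shows both sets.

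**Figure D2:**
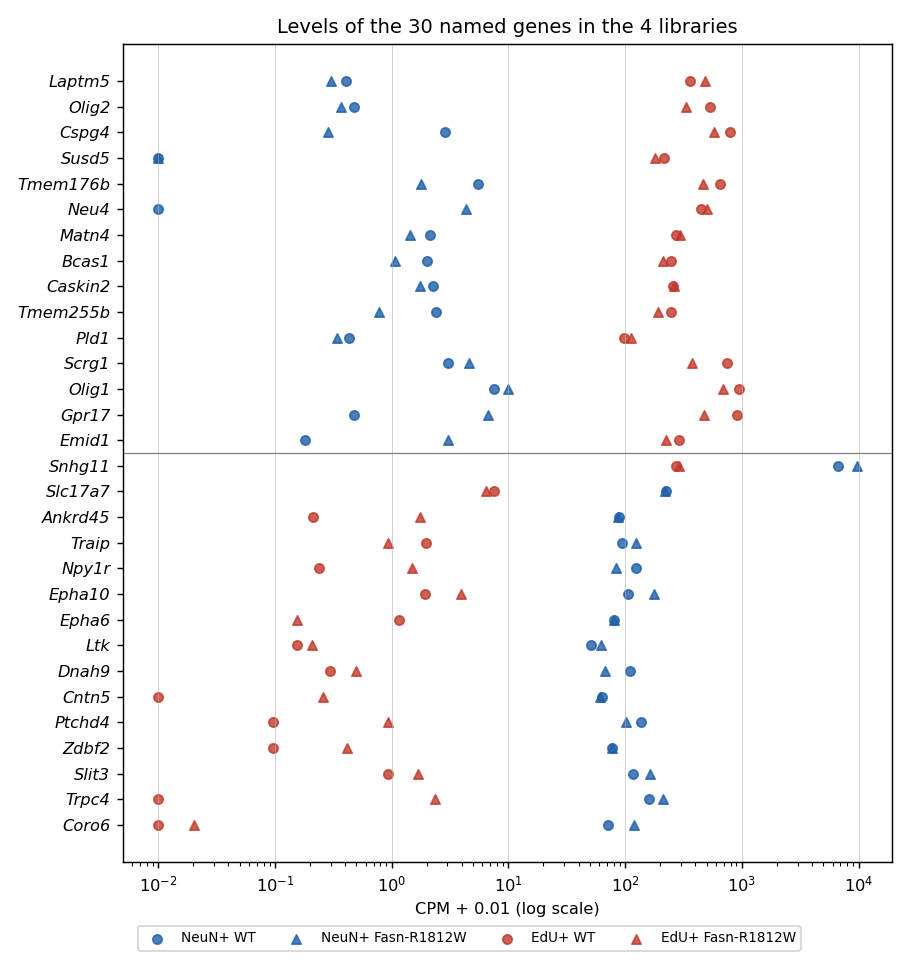
CPM + 0.01 on a log axis in each of the 4 libraries for the 15 genes named as higher (above the line) and the 15 named as lower (below it) in EdU+, with points at 0.01 for a gene without reads. The red EdU+ points and the blue NeuN+ points do not overlap for any of the 30 genes, which were chosen by this difference.

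EdU+ nuclei were gated on DNA synthesis, and the share of division genes that passed the test differed between lists. Cells leave the cycle during the days of labelling, so an EdU+ nucleus need not have been dividing when it was isolated. Of 44 genes of the mitotic spindle and kinetochore, 30 were tested, 7 were higher and 0 lower, and the median log2 ratio was 2.51 for WT and 2.26 for Fasn-R1812W. Those 7 are a larger share of the 30 than the 8.72% of all tested genes called higher. Without the test, 20 of the 30 were at least 2-fold higher in both genotypes, against 15.2% of all tested genes. Members under 5 CPM in both NeuN+ libraries, such as Aspm and Cenpf, were tested only because of their EdU+ level, which fixed their direction. The counts and medians of this list are therefore partly set by the filter, and their distance from all tested genes was not tested. The 7 were Kif4, Kif15, Cenpe, Cenpf, Nuf2, Ckap2 and Aspm, which encode motors and kinetochore or spindle proteins. Of 36 genes of origin licensing and the replication fork, 25 were tested and 2 were higher, Prim1 (DNA primase) and Clspn (the checkpoint adaptor claspin), with medians of 0.09 and 1.13. That share is close to the 8.72% of all tested genes called higher, so the count is not a result about replication genes. Of 24 genes of chromosome condensation and cohesion, 21 were tested and 2 were higher, Top2a and Esco2, which is also close to that share.

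Top2a, the topoisomerase that untangles sister chromosomes, stood at 0.198 and 0.167 CPM in NeuN+ and 92.5 and 51.5 CPM in EdU+ (log2 8.61 ± 0.71, SE, adjusted p = 0.00348). A read of Top2a was found in 3.13% (1.57% to 5.52%) and 6.92% (4.57% to 9.97%) of thinned EdU+ nuclei and in 0.286% (0.007% to 1.58%) and 0.852% (0.176% to 2.47%) of NeuN+ nuclei, so few nuclei carried the pooled level. Aspm, a spindle pole protein, stood at 1.91 and 0.250 CPM against 61.9 and 30.8 CPM. Cenpf, a kinetochore protein, stood at 1.004 and 2.47 CPM against 30.1 and 47.4 CPM. Single nuclei held large parts of these totals in EdU+, 36.9% for Top2a and 37.5% for Aspm in WT. Mki67, the usual proliferation marker, is named here outside the naming rule. It stood at 24.1 and 33.2 CPM against 66.6 and 105 CPM and was not called (adjusted p = 0.0617).

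Few genes that feed DNA synthesis were called. Rrm2, a subunit of ribonucleotide reductase, had no read in either NeuN+ library and stood at 11.7 and 19.3 CPM in EdU+. Tk1, the thymidine kinase that phosphorylates thymidine and its analogues, stood at 2.39 and 1.42 CPM against 64.7 and 36.9 CPM, with 72.2% of its EdU+ WT reads in 1 nucleus. Those were the 2 called of 14 nucleotide supply genes, all tested, with list medians of 0.51 and 0.25. That share is not far from the 8.72% of all tested genes called higher, so the count is not a result about nucleotide supply. Among 32 cyclins, kinases and checkpoint genes 22 were tested, of which 5 were higher (Ccnd1, Ccnd3, Cdk2, Cdk6, E2f8) and Cdc25b was lower. Ccnd1, the G1 cyclin D1, stood at 9.43 and 25.4 CPM against 167 and 288 CPM. Among 16 inhibitors of the cycle 13 were tested and 4 were higher as well: Cdkn1b (p27), Cdkn2c (p18), Btg1 and Trp53 (p53). Cdkn1b stood at 22.3 and 12.7 CPM against 56.6 and 93.0 CPM, and Trp53 at 26.4 and 25.9 CPM against 72.2 and 93.0 CPM.

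Promoters of 5 called division genes, chosen to show genes with and without the letters, are printed because mitotic and replication genes are known for different promoter letters. The CHR element (TTTGAA or TTTAAA) is a feature of late cell cycle genes, and E2F sites (searched as TTTGGCGC, TTTCCCGC or TTTCGCGC) are a feature of S phase genes. Each promoter is the 300 bases from 250 before to 50 after the start, from RefSeq with build GRCm38.p6, written 5′ to 3′ on the gene's strand. Capitals mark CHR and E2F matches on either strand, so that TTCAAA is TTTGAA on the other strand and GCGCGAAA is TTTCGCGC. Matches of CCAAT, which was searched as well, are left in lower case. TTTAAA reads the same on both strands, and none of these motifs was counted for another. Top2a lies at chr11:99024140-99024439 on the - strand, Aspm at chr1:139454523-139454822 on the + strand, Cenpf at chr1:189688037-189688336 on the - strand, Nuf2 at chr1:169531415-169531714 on the - strand, and Clspn at chr4:126556730-126557029 on the + strand.
Top2a: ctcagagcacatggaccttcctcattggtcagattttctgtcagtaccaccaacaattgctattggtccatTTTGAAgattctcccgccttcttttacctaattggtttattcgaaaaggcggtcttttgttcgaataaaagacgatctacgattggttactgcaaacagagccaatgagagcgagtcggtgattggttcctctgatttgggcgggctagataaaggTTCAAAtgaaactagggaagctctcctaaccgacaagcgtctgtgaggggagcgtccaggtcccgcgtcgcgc
Aspm: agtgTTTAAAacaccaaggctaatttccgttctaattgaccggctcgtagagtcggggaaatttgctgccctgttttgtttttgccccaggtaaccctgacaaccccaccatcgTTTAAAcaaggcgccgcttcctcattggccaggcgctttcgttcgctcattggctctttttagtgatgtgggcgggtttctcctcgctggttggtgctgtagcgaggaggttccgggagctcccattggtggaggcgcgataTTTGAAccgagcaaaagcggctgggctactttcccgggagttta
Cenpf: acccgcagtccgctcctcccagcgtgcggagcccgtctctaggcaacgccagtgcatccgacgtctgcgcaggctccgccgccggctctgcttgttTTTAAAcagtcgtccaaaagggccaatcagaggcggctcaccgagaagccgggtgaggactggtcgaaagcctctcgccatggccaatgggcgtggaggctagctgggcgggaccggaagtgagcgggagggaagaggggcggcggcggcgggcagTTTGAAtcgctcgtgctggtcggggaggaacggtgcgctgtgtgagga
Nuf2: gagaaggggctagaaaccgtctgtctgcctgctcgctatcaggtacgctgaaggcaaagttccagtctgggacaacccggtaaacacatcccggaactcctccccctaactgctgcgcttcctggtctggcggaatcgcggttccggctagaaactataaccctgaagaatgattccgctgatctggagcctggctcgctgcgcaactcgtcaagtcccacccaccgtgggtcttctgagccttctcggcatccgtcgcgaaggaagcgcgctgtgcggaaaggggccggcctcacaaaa
Clspn: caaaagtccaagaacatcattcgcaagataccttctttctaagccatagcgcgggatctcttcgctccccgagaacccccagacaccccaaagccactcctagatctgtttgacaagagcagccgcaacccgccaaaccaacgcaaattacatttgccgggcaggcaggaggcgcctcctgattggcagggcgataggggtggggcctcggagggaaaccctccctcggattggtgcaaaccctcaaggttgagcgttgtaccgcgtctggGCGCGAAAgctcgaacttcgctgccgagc

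Top2a, Aspm and Cenpf hold TTTGAA close to the start, Nuf2 holds none of the letters searched, and Clspn holds no CHR letters but an E2F match. The other called division genes did not divide cleanly by role. Among the spindle genes Kif4, Kif15 and Ckap2 hold TTTGAA and Cenpe holds TTTAAA only, and Kif15 also has E2F letters. Prim1, a replication gene, has no E2F letters. RefSeq promoters were matched for 38 of the 44 spindle and kinetochore genes. TTTGAA was found in 65.1% of their 43 promoters, against 17.9% of all 32851 promoters and 11.5% of those of tested genes. CCAAT, on either strand, was found in 69.8% of spindle promoters and 37.4% of all. The E2F letters were found in 43.8% of the 32 promoters of 28 matched replication genes, in 1.85% of all and in 3.18% of those of tested genes. Of 28 DNA repair genes, 24 were tested. Fanci and Uhrf1 were higher, a share close to the 8.72% of all tested genes, and Polq, a polymerase of break repair, was lower. The lists searched held few called genes, so the letters describe the lists and not the calls. Over all genes called higher TTTGAA was found in 14.3% of promoters, and over all called lower in 12.9%. For the E2F letters these shares were 2.9% and 1.32%.

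Marker lists of hippocampal and blood cell types separated the gates. Of 15 oligodendrocyte precursor markers, 14 were higher in EdU+ and 0 lower, with median log2 ratios of 6.78 and 5.96. Their summed level was 510 and 488 CPM in NeuN+ and 15280 and 13960 CPM in EdU+. The remaining one, Pdgfra, the platelet-derived growth factor receptor that defines these cells, stood at 0 and 9.91 CPM against 2245 and 1673 CPM. It was not called (adjusted p = 0.0531), and 59.7% of its reads in NeuN+ Fasn-R1812W came from 1 nucleus. A read of Pdgfra was found in 64.2% (59.0% to 69.2%) and 78.2% (73.7% to 82.3%) of thinned EdU+ nuclei and in 0% (up to 1.05%) and 0.568% (0.069% to 2.04%) of NeuN+ nuclei. Of 10 markers of committed precursors 6 were higher, and of 12 mature oligodendrocyte markers 4 were higher, among them Mobp, Cnp and Ugt8a. After thinning, Ugt8a was read in 0.857% and 2.56% of NeuN+ nuclei and in 9.94% and 20.7% of EdU+ nuclei. For Mobp the shares were 4.86% and 4.83% against 3.69% and 8.51%, and for Cnp 12.6% and 15.9% against 9.38% and 14.6%. The share of nuclei was thus not higher in EdU+ for Cnp, nor for Mobp in WT.

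Immune markers were higher in EdU+ as well. Of 14 microglial markers 11 were higher, with a summed level of 87.5 and 143 CPM in NeuN+ and 4490 and 4191 CPM in EdU+. Trem2, a lipid receptor of microglia, stood at 0.594 and 0.514 CPM against 114 and 116 CPM. All 8 tested of 11 neutrophil and monocyte markers were higher, with a summed level of 0.410 and 0.888 CPM against 1960 and 2090 CPM. With so low a sum in NeuN+, each of the 8 was tested only because of its EdU+ level, which fixed its direction. That none of them was lower is therefore set by the filter and is not a separate result. S100a9, a subunit of calprotectin, had no read in NeuN+ and stood at 542 and 482 CPM in EdU+, at least 11600-fold higher in each genotype. It was read in 3.98% (2.19% to 6.58%) and 13.8% (10.5% to 17.7%) of thinned EdU+ nuclei, and the count of 0 in NeuN+ allows up to 1.05% and 1.04%. Lymphocyte markers differed in size between the EdU+ libraries: the summed level of the T and natural killer list was 24.5 and 19.3 CPM in NeuN+, and 35.9 and 1706 CPM in EdU+. Of its 14 members 3 were tested, and Cd3g, part of the T cell receptor complex, was called higher. The 8 B lymphocyte markers summed to 21.3 and 8.25 CPM in NeuN+ and 53.2 and 146 CPM in EdU+, and of 4 tested Cd79b and Ebf1 were higher.

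Astrocyte markers moved less. Of 14, 5 were higher (Slc1a3, S100b, Aldoc, Apoe, Fgfr3) and the bicarbonate transporter Slc4a4 was lower. Apoe, the main lipoprotein of glia, stood at 170 and 56.0 CPM against 1628 and 1828 CPM. Gfap and Aqp4, both astrocyte genes, were not called, with Gfap at 27.5 and 9.80 CPM against 37.4 and 14.3 CPM and Aqp4 at 26.9 and 8.51 CPM against 5.52 and 14.9 CPM. Endothelial, smooth muscle, fibroblast and ependymal lists had 2, 2, 2 and 4 tested members, with 1 call each in the first 2, Flt1 and Cspg4. Cspg4 also stands in the precursor list.

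Fewer markers of neurogenesis passed the test. Of 13 neuroblast and immature neuron markers, Sox4, Eomes, Dpysl3 and Draxin were higher and Neurod2 was lower. Eomes (Tbr2), a transcription factor of intermediate progenitors, had no read in NeuN+ and stood at 31.4 and 21.1 CPM in EdU+, at least 507-fold higher in each genotype. A read of Eomes was found in 2.84% (1.37% to 5.16%) and 4.26% (2.45% to 6.82%) of thinned EdU+ nuclei, and 63.3% of its EdU+ WT reads came from 1 nucleus. Dcx, a microtubule protein of migrating neurons, was not called, at 124 and 97.4 CPM in NeuN+ and 182 and 146 CPM in EdU+. Of 11 markers of radial glia-like stem cells 4 were tested, and Sox2 alone was called, at 10.2 and 6.90 CPM against 57.9 and 57.7 CPM.

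Neuronal markers were lower in EdU+. Of 13 markers shared by neurons 8 were lower and 0 higher, and of 8 glutamatergic markers 7 were lower, with medians of -3.69 and -2.72. Of 15 markers of GABAergic interneurons 3 were lower, Sst, Cnr1 and Reln. The GABA-synthesising enzymes were not called: Gad1 stood at 263 and 276 CPM against 211 and 133 CPM, and Gad2 at 137 and 197 CPM against 104 and 23.1 CPM. Summed levels of the interneuron list were 1958 and 2520 CPM in NeuN+ and 1200 and 851 CPM in EdU+. Map2, a dendritic microtubule protein, was at 539 and 476 CPM against 441 and 499 CPM, and its groups overlapped.

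Beyond markers, the 62 functional lists covered signalling, matrix, synapse and metabolism. In 39 more members were called higher than lower, in 21 more were called lower, and 2 were even. The plot of called shares orders the lists in which 20% of all members, tested or not, were called in a direction. Lists share members with the marker lists and with each other, and the members and lists were not chosen independently of these samples.

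**Figure D3:**
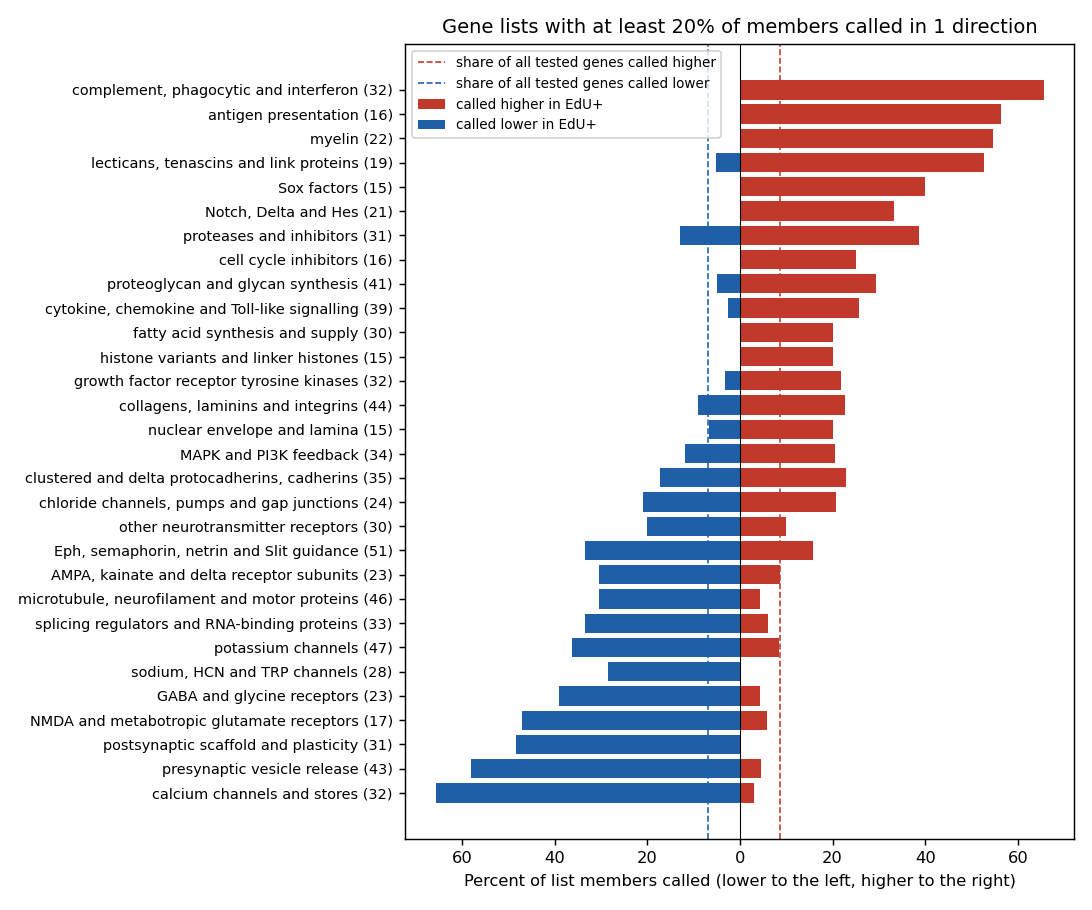
Percent of the members of each functional list called higher (red, to the right) and lower (blue, to the left) in EdU+, for lists with at least 20% called in 1 direction and with the number of members in brackets. Dashed lines give the shares among all 13910 tested genes, 8.72% and 6.86%. The bars count all members, tested or not, so lists with untested members stand too low beside the lines. The bars run from complement and interferon genes at the top to calcium channel genes at the bottom.

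Of the 62 lists, complement and antigen presentation had the largest shares called higher. Of 32 complement, phagocytic and interferon genes 21 were higher and 0 lower, with medians of 3.77 and 3.59. C1qb, part of the first complement component, stood at 0.622 and 14.98 CPM against 633 and 511 CPM. Itgb2, the integrin chain of leukocytes, stood at 0 and 0.208 CPM against 104 and 123 CPM. Of 16 antigen presentation genes 9 were higher. H2-K1, a class I histocompatibility chain, stood at 5.34 and 3.44 CPM against 343 and 995 CPM. Cd74, the class II invariant chain, stood at 0.0424 and 0.0139 CPM against 20.1 and 257 CPM, and 84.8% of the WT reads were from 1 nucleus. Of 39 cytokine and Toll-like signalling genes 10 were higher, and Cx3cl1, the neuronal ligand of the microglial receptor Cx3cr1, was lower at 235 and 258 CPM against 24.6 and 57.2 CPM. Its receptor went the other way, with Cx3cr1 at 1.34 and 11.1 CPM against 231 and 338 CPM.

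Matrix genes were called in both directions, more often higher. Of 19 lecticans, tenascins and link proteins, which form the hyaluronan-based matrix of brain, 10 were higher and Hapln4 was lower, with medians of 3.40 and 3.19. Vcan (versican) stood at 6.42 and 30.9 CPM against 1351 and 1371 CPM. Ptprz1, a receptor phosphatase that carries chondroitin sulphate, stood at 240 and 152 CPM against 4234 and 4780 CPM (log2 4.53 ± 0.29, SE, adjusted p = 0.00242). Hapln4, a link protein of perineuronal nets, stood at 30.6 and 42.6 CPM against 0 and 0.136 CPM. Of 41 genes of proteoglycan and glycan synthesis, a list that also holds core proteins, 12 were higher and 2 lower. The higher ones were the chain-starting enzyme Xylt1, the sulphotransferases Chst2, Chst3, Chst5, Chst7 and Chst11, the sulphatases Sulf1 and Sulf2, which remove sulphate, and the core proteins Gpc5, Gpc6, Sdc2 and Sdc3. Xylt1 stood at 42.2 and 71.0 CPM against 512 and 571 CPM, whereas the heparan sulphate enzymes Ndst3 and Hs3st4 were lower.

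Proteases and collagens divided between the gates. Of 31 proteases and inhibitors 12 were higher and 4 lower. Mmp2 (gelatinase A) had no read in NeuN+ and stood at 87.2 and 94.9 CPM in EdU+, at least 2060-fold higher in each genotype. The lysosomal cathepsin Ctss stood at 2.70 and 11.9 CPM against 572 and 813 CPM. The neuronal serpin Serpini1 was lower, at 255 and 261 CPM against 48.2 and 12.8 CPM. Of 44 collagens, laminins and integrins 10 were higher and 4 lower. Col27a1 stood at 4.30 and 2.12 CPM against 103 and 140 CPM, whereas Col5a2 stood at 45.4 and 38.3 CPM in NeuN+ and had no read in EdU+, at least 526-fold lower in each genotype.

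Notch genes and growth factor receptors had more members called higher than lower. Of 28 growth factors and neurotrophins 24 were tested. Tgfa and Vegfa were higher and Fgf9, Nrg3 and Cx3cl1 were lower, with medians of -1.58 and -0.43. In 7 of the 24 the 2 genotypes had opposite signs. These shares are not far from the 8.72% higher and 6.86% lower of all tested genes, so the counts are not a result about growth factors. Of 21 Notch pathway genes 7 were higher and 0 lower: the receptors Notch1 and Notch2, the ligands Dll1, Dll3 and Jag1, the glycosyltransferase Mfng and the target Hes5. Hes5, a repressor of differentiation, stood at 3.79 and 1.96 CPM against 72.0 and 55.0 CPM. Of 32 growth factor receptor tyrosine kinases 7 were higher (Erbb3, Fgfr3, Csf1r, Flt1, Axl, Mertk, Ddr1) and Ltk was lower. Of 34 genes of MAPK and PI3K feedback 7 were higher, among them the inhibitors Spry1, Spry2 and Spry4 and the factors Etv4 and Etv5. The 4 lower ones, Rasgrf1, Rasgrf2, Rasgrp1 and Rasal1, encode exchange factors for Ras and a GTPase-activating protein. Rasgrf2 stood at 203 and 172 CPM against 5.67 and 10.1 CPM. Etv4 stood at 0.283 and 1.36 CPM against 52.5 and 107 CPM.

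Transcription and splicing factors were called in both directions. Of 15 Sox factors 6 were higher (Sox2, Sox4, Sox6, Sox8, Sox10, Sox21) and 0 lower. Sox10, which drives oligodendrocyte genes, stood at 7.68 and 3.68 CPM against 258 and 298 CPM. The neuronal factors Neurod2, Neurod6, Myt1l, Bcl11a and Bcl11b were lower, with Bcl11a at 367 and 426 CPM against 61.8 and 62.5 CPM. Of 33 splicing regulators 11 were lower, among them Rbfox1, Rbfox2, Rbfox3 and 5 Celf genes, and Nova1 and Qk were higher. Qk (quaking), which regulates RNA of myelinating cells, stood at 176 and 147 CPM against 1086 and 1265 CPM. Nova1, best known as a neuronal splicing factor, stood at 67.7 and 54.2 CPM against 334 and 322 CPM.

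The synapse lists went lower on the sending and the receiving side. Of 43 presynaptic release genes, all tested, 25 were lower, and the list medians were -1.46 and -1.87. Syt1, which senses calcium at release sites, stood at 1774 and 1732 CPM against 110 and 61.0 CPM. In this list 2 genes were higher, Syn3 (synapsin III) and Unc13c. Syn3 stood at 29.4 and 22.9 CPM against 226 and 180 CPM, but it contains Timp3 on the opposite strand, and Timp3 was itself called higher. Unc13c, a vesicle priming factor, stood at 22.7 and 17.4 CPM against 115 and 134 CPM. Of 31 postsynaptic scaffold and plasticity genes 15 were lower and 0 higher. Kalrn, an exchange factor of dendritic spines, stood at 787 and 783 CPM against 35.1 and 22.3 CPM.

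Transmitter receptors were lower with exceptions inside each family. Of 17 NMDA and metabotropic glutamate receptor genes 8 were lower. Grin2b stood at 1601 and 1540 CPM against 65.5 and 71.7 CPM (log2 -4.52 ± 0.22, SE, adjusted p = 0.00184), and Grin1, the obligatory NMDA subunit, at 402 and 429 CPM against 28.3 and 30.6 CPM. Grin3a, a subunit that lowers calcium entry, was higher at 53.5 and 106 CPM against 242 and 337 CPM. Among 23 AMPA, kainate and delta receptor genes 7 were lower, with Gria1 at 1158 and 1269 CPM against 70.6 and 84.4 CPM. Among the 2 higher was the auxiliary subunit Cacng4, at 3.51 and 10.4 CPM against 742 and 508 CPM. Cacng2 (stargazin), of the same auxiliary family, was lower at 27.4 and 27.5 CPM against 1.18 and 0.146 CPM.

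GABA receptors showed the same kind of exception. Of 23 GABA and glycine receptor genes 9 were lower, and Gabrg1 was higher. Gabrg1 stood at 21.2 and 15.5 CPM against 92.6 and 62.1 CPM, and Gabra2, among the lower ones, at 437 and 291 CPM against 54.4 and 43.1 CPM. Htr4, a serotonin receptor, stood at 40.6 and 40.4 CPM in NeuN+ and had no read in EdU+, at least 470-fold lower in each genotype. The purinergic receptors P2rx7 and P2ry12 were higher, with P2rx7 at 2.29 and 6.33 CPM against 122 and 133 CPM. Of 30 such other receptors 6 were lower and 3 higher.

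Ion channels and transporters gave a comparable picture. Among calcium channel and store genes 21 of 32 were lower, the largest share called lower among the 62 lists, with Ryr2, the ryanodine receptor, at 827 and 626 CPM against 49.5 and 44.7 CPM. Itpr2, a release channel of the endoplasmic reticulum known from glia, was the exception at 9.59 and 11.7 CPM against 384.4 and 333 CPM, and it overlaps a predicted gene on the opposite strand. Of 47 potassium channel genes 17 were lower and 4 higher. The higher ones included the glial inward rectifiers Kcnj10 and Kcnj16, with Kcnj10 at 21.01 and 10.2 CPM against 299.9 and 225 CPM. Of 28 sodium, HCN and TRP channel genes 8 were lower and 0 higher. Chloride transporters went opposite ways, with Slc12a5 (KCC2) lower at 424 and 453 CPM against 76.4 and 21.1 CPM and Slc12a2 (NKCC1) higher at 59.5 and 48.6 CPM against 156 and 170 CPM.

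Guidance and cytoskeletal genes were split. Of 51 Eph, semaphorin, netrin and Slit genes 17 were lower and 8 higher, with 5 of the lower ones Eph receptors and 5 of the higher ones semaphorins. Sema3d, a secreted semaphorin, stood at 3.21 and 5.51 CPM against 194 and 177 CPM, and Robo3, a Slit receptor family member, at 38.0 and 70.7 CPM against 0.144 and 0 CPM. Of 46 microtubule, neurofilament and motor genes 14 were lower, whereas Vim (vimentin) and Kif21b were higher. Vim stood at 5.19 and 2.62 CPM against 112 and 99.9 CPM. Of 44 actin regulators 7 were higher and 4 lower, with Dock2, an exchange factor of leukocytes, at 0.155 and 0.0278 CPM against 78.2 and 116 CPM.

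Among lipid genes, more were called higher than lower in the lists of fatty acid and myelin genes. Of all tested genes 8.72% were called higher and 6.86% lower. Phospholipid and sphingolipid genes were called in both directions, with 6 higher and 4 lower of 36 tested. Of 30 fatty acid synthesis and supply genes, 6 were higher and 0 lower: Fasn, Scd2, Elovl5, Srebf1, Mlxipl and Fabp7, with list medians of 0.65 and 0.38. Scd2, a desaturase, stood at 251 and 262 CPM against 1250.0 and 803 CPM, and Srebf1, the factor that drives lipogenic genes, at 31.1 and 22.1 CPM against 86.1 and 102 CPM. Fabp7, a fatty acid carrier of glial progenitors, stood at 2.04 and 0.777 CPM against 128 and 103 CPM. Of 31 sterol genes 30 were tested, and the exporters Abca1 and Abcg1 and the lysosomal Npc1 and Npc2 were higher. Cyp46a1, which clears cholesterol from neurons, was lower at 184 and 250.5 CPM against 22.2 and 17.3 CPM. The sterol medians were 0.64 and -0.07, and 12 of the 30 had opposite signs in the 2 genotypes. Those 4 of 30 are not far from the share of all tested genes, so the count is not a result about sterol genes. Of 22 myelin genes 12 were higher and 0 lower.

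Energy and translation genes were mostly not called, and the same held for most tested genes, of which 8.72% were higher and 6.86% lower. Of 37 genes of the tricarboxylic acid cycle and respiratory chain, all tested, Idh2 was higher and 0 were lower. Of 36 cytosolic ribosomal protein genes, all tested, Rpl13 and Rps9 were higher, and this family has many processed copies that could share reads. Neither of these 2 lists exceeded the share of all tested genes called higher, so the calls are not a result about either family. Of 30 glycolysis genes 2 were higher, Hk2 and Aldoc, and 5 were lower, Gpi1, Pfkp, Aldoa, Eno2 and Slc2a3. Eno2, neuronal enolase, stood at 287 and 365 CPM against 57.6 and 46.8 CPM. Of 26 immediate early and activity-response genes 5 were lower (Fosb, Egr4, Nr4a2, Nr4a3, Homer1) and 0 higher.

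Genes called lower were longer than the rest. Tested genes were put in 5 groups of equal size by the span of the gene in the annotation. In the group with the longest genes, with a median span of 139 kb, 13.6% were lower and 9.94% higher. In the middle group, with a median of 23.2 kb, 3.17% were lower and 9.01% higher. In the group with the shortest genes, with a median of 3.09 kb, 7.06% were lower and 7.49% higher. The share called lower thus did not rise steadily with span. Of the 873 genes of at least 200 kb, 19.5% were lower and 8.25% higher. The median span was 47.6 kb for genes called lower, 25.6 kb for genes called higher and 22.1 kb for the rest. Nuclear RNA holds unspliced transcripts, and long genes are common among synaptic and adhesion genes. The part of length in the calls was not tested.

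**Figure D4:**
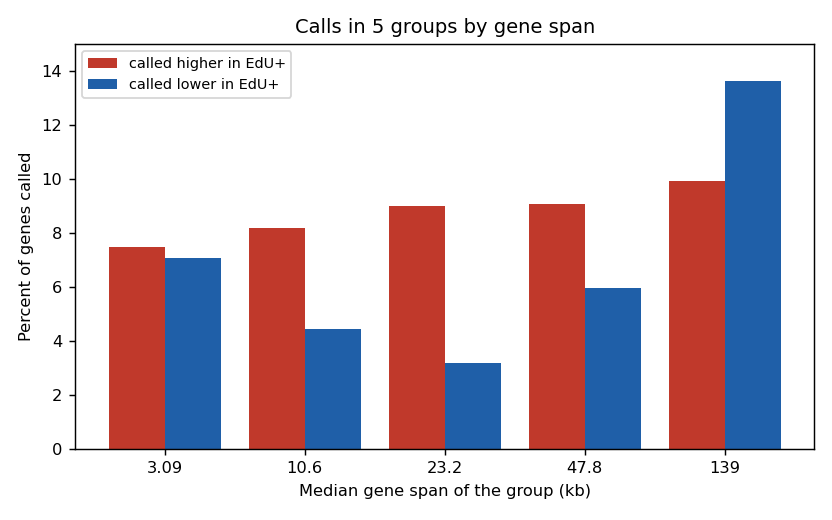
Percent of tested genes called higher (red) and lower (blue) in EdU+ in each of 5 groups by gene span, labelled by the median span of the group in kb. The share called lower is 7.06% in the group with the shortest genes, 3.17% in the middle group and 13.6% in the group with the longest genes. The share called higher runs from 7.49% to 9.94%.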

How the data were processed

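The deposited values were raw read counts per gene and well, not normalized by the authors as far as the values show. Per the submitters' processing notes, Trimmomatic 0.36, STAR 2.5.3a and build GRCm38.p5 were used. How reads were counted, with which annotation and strand setting, is not given in the sources used here. Each table held 25567 genes and 384 wells, against 382 nuclei stated per library, and all wells passing the filter were used. Symbols and positions of 25472 genes came from GENCODE M21. The embryonic nuclei of the study were not used here.

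Counts of kept wells were summed per library. Mitochondrially encoded genes took 0.164% to 0.633% of reads and were left out of the library size. edgeR 4.0.16 (R 4.3.3) was fitted with gate as the only term, with no scaling beyond library size. On simulated counts over 13910 genes for this comparison, 49 of 50 genes changed 8-fold, 41 of 50 changed 4-fold, 45 of 50 changed 0.25-fold and 50 of 50 changed 0.125-fold were called, with 9 false calls. The simulated counts had a smaller dispersion than the common dispersion of 0.293 estimated from these libraries. The simulation therefore checks the direction of the fit and does not give the recovery or false calls in these data. The 4 plates carried the same 384 well index names; no wells were identical across libraries. No doublet caller was run and no nuclei were clustered. Ratios within a genotype used a prior of 1 CPM. A limit of 3 reads was used where a gene had none; limits cover counting error only. P-values measure the spread between the libraries of a gate, which differ in genotype and may differ technically.

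Of called genes, those with 50 CPM or more in both libraries of the higher gate, reads in 10% or more of their nuclei, and at most 20% of the reads from any single nucleus were ranked by the smaller of their 2 ratios, and 15 per direction were named. Genes with predicted or clone names, pseudogenes and the mitochondrial genome were not named. Up to 6 members of each of 81 lists (19 marker, 62 functional) were named by size of ratio, and some other members were named after their values were seen. Members, lists and rules were chosen with earlier results of these data known. Alternatives were TMM scaling, DESeq2 1.42.0, genotype as a block, 3 nucleus filters, mean CPM per nucleus with limma 3.58.1, thinning to 20000 reads, other gene filters, another prior and leaving out each library. Python 3.11.15, numpy 2.4.6, scipy 1.17.1, pandas 2.3.3 and matplotlib 3.10.9 were used.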

Additional observations from a re-analysis of the deposited data

Results flagged for a closer look

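Among the genes named by rule, 3 had ratios of opposite sign in the 2 genotypes, with 1 library per gate and genotype, and the difference was not tested because no residual degree of freedom is left for it. Lck, a kinase of T cells, had a log2 ratio of EdU+ over NeuN+ of -2.83 in WT and 3.38 in Fasn-R1812W, from 6.11 and 8.54 CPM in NeuN+ and 0 and 98.7 CPM in EdU+. Ighm, the heavy chain of immunoglobulin M, had -0.0334 in WT and 3.71 in Fasn-R1812W. Atp5b, a subunit of ATP synthase, had 0.0642 in WT and -0.53 in Fasn-R1812W. Of the genes named outside the rule, Aqp4 had -2.09 in WT and 0.74 in Fasn-R1812W, and Map2 had -0.289 and 0.067.

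Across all tested genes the largest opposite ratios at 2-fold or more included Tac2 (3.52 in WT and -3.67 in Fasn-R1812W), Htr3a (-4.28 and 2.25) and Camk1g (1.60 and -4.86), which were picked after their values were seen. For Tac2, 1 nucleus held 86.5% of the NeuN+ Fasn-R1812W reads, 82.6% of the EdU+ Fasn-R1812W reads and 51.3% of the NeuN+ WT reads. For Htr3a, 1 nucleus held 98.5% of the EdU+ Fasn-R1812W reads. For Camk1g, 1 nucleus held 55.3% of the EdU+ WT reads.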

How the results depend on the processing

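The numbers of genes called, 1213 higher and 954 lower, depend on how the spread between libraries is estimated. DESeq2 called 2095 and 1733, and limma on mean CPM per nucleus called 2045 and 1728. Leaving out 1 library moved the count from 583 to 2056 higher and from 260 to 2230 lower, with the lone library of a gate assumed to vary like the other gate. With the genotype as a block, which the labels do not tie to animals, 1030 and 762 were called, of which 958 and 701 were among those above. TMM scaling, no filter on nuclei, the filter of 1000 genes and 50000 reads (904 and 734), thinning (1783 and 1401) and the gene filters stayed within 1.5 times. The filter of 1000 genes and 50000 reads kept 167 wells of EdU+ WT, and 60 of the named genes lost their call. Without NeuN+ WT 118 named genes lost it, and without NeuN+ Fasn-R1812W 115 did. Lck, not called, changed sign with the block (-1.27) and in mean CPM (-0.61), and ranged from -11.76 to 3.75 as single libraries were left out. Over the same omissions Per3, not called, ranged from -0.030 to 0.54 and Atp5b, not called, from -0.53 to 0.068. Of the genes named outside the rule and not called, Camk1g ranged from -5.15 to 0.78, Tac2 from -3.57 to 2.66, Htr3a from -12.33 to 1.56, Gfap from -0.38 to 1.40 and Aqp4 from -1.68 to 0.26. Tac2 was at -0.27 with the block, and Camk1g at 0.062 without the 5% of nuclei with most reads. Depth limits genes with few EdU+ nuclei, where 1 nucleus can hold most reads.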

Other observations

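Transcripts of the annotation class TEC, gene models still awaiting experimental proof, were called lower more often than they were called higher. Of 1128 tested, 143 (12.7%) were lower in EdU+ and 45 (3.99%) higher, against 6.34% and 9.16% of 12722 protein-coding genes. Of the 143 called lower, 119 overlapped a tested protein-coding gene, and in 93 of these (78.2%) that gene was itself called lower. Of the 45 called higher, 37 overlapped one, and in 30 (81.1%) that gene was called higher. Of the 940 not called, 825 overlapped one, and in 158 (19.2%) it was called lower. Strand was not considered, and reads of a transcript inside another gene and of its host could not be told apart.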
